A study of Mus musculus with 33 samples.

Results

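The ribosomal protein pseudogenes described here were the genes whose symbol joins the name of a ribosomal protein gene of the large (Rpl) or small (Rps) subunit and a number to the ending -ps, with at least 0.5 FPKM in at least 5 tumours. FPKM counts sequenced fragments per kilobase of exon, scaled to the total of the tumour. Of 264 such symbols in a table of 48795 genes, 120 met this rule, 15 reached 0.5 FPKM in 1 to 4 tumours and 129 in none. Copies of genes with a letter in place of the number, such as Rpsa, are not among them. The members belonged to 50 parent genes, the parent being the gene named before -ps. Just inside the limit were Rpl13-ps6 and Rps19-ps10, with 5 tumours and means of 0.262 and 0.227 FPKM, and just outside it was Rpl31-ps4, with 4 tumours and a mean of 0.219 FPKM. Of the 120, 57 reached 0.5 FPKM in all 33 tumours. With the tumours of 1 group left out some members would have missed the limit. These were 2 without the combination, 2 without the ESK981, 11 without the anti-PD-1 and 5 without the vehicle tumours. The counts overlap: Rpl13-ps6 is in every one, and Rps12-ps3, Rpl23a-ps14, Rps13-ps5 and Rps19-ps10 are in more than 1.

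RNA came from tumours of Myc-CaP cells, a line from the prostate tumour of a mouse that carries human MYC under a prostate promoter, grown under the skin of male FVB mice. Each of the 4 groups held 5 mice with such tumours on 1 or both flanks: the combination of ESK981 and anti-PD-1 (8 tumours), ESK981 (8), anti-PD-1 (7) and vehicle (10). ESK981, an oral kinase inhibitor whose targets include the lipid kinase PIKfyve, was given at 15 mg/kg on 5 days a week. Antibody to PD-1, an inhibitory receptor of T cells, or an isotype control was dosed at 200 µg a mouse on 3 occasions each week. Treatment started at 50 mm3 and lasted 3 weeks, and the labels do not say which mice had the isotype control. The tumour cells are 1 line in all groups. Of 9 epithelial and prostate markers 5 reached 0.5 FPKM in every tumour: the keratin gene Krt8 averaged 22.7 FPKM, while Cdh1, Krt18 and Epcam averaged under 0.5 FPKM. Tumours are named by group, mouse and flank.

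Processed pseudogenes are copies of spliced messenger RNA that the enzymes of LINE-1 elements wrote back into the genome, so they lack introns and usually a promoter of their own. Ribosomal proteins build the large and the small subunit of the ribosome, and their short, abundant messenger RNAs left many such copies in mammalian genomes. A young copy is nearly identical to its parent, and a short read from one can match the other.

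In the GENCODE M21 annotation of GRCm38 (mm10), 119 of the 120 had an entry, each a single exon of 151 to 1214 bases with a median of 456. By the gene types given with the deposited FPKM, 109 of the 120 were processed pseudogenes and 8 protein-coding. The other 3 (Rps2-ps10, Rpl39-ps and Rps26-ps1) were transcribed processed pseudogenes. The 119 with an entry lay on 20 chromosomes, 11 of them on X, and 5 shared the chromosome of their parent. Of the 119, 43 lay inside another gene without sharing its exons and 71 overlapped no gene. For 117 the alignment to the parent transcript covered at least 80% of the copy, with identities of 76.4% to 100% and a median of 98.7%. Of these 11 had no differing base and 44 had 1 to 5. The parent reading frame was open from start to stop in 56 of 119, and 22 of those encode the parent protein unchanged. The other 2, Rpl13-ps1 and Rpl18-ps1, aligned to the gene of their symbol over 1.5% and 2.10% of their length, so the parent read from the symbol is uncertain for both, and Rpl13-ps1 matched Rpl13 as its reverse complement.

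The copies that the results turn on are shown beside the coding sequence of their parents, from GENCODE M21, because they show how few bases separate a copy from its parent. Capitals mark the bases that differ, and positions count from the A of the parent's start codon. Rpl38-ps2 (chr6:140746960-140747172, minus strand) is the coding sequence of Rpl38 without a difference and is given alone.
Rpl38-ps2: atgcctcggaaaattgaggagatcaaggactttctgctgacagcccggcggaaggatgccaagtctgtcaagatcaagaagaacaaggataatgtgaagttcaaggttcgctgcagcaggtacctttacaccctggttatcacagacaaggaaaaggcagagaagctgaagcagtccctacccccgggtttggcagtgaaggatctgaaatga
Rps6-ps4 equals the coding sequence of Rps6, and its first 60 bases are given (chr2:75191763-75191822, minus strand).
Rps6-ps4: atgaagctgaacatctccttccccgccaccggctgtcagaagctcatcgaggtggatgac
Rpl3-ps1 (window chrX:13202598-13202657, plus strand) carries C57A in this window, which leaves the amino acid as it is.
Rpl3-ps1: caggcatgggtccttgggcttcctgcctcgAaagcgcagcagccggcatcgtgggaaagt
Rpl3: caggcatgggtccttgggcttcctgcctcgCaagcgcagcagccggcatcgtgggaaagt
Rpl10-ps6 (window chr19:37295311-37295370, minus strand) carries C457T, its 1 substitution over 642 bases, where the coding sequence of Rpl10 has 645. C457T turns codon 153 of 215 into a stop codon.
Rpl10-ps6: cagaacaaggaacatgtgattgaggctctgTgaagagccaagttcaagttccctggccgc
Rpl10: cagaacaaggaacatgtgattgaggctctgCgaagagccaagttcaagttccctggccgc
Rpl31-ps14 (window chr1:66948810-66948869, minus strand) carries T98A and A105G here, 2 of its 6 differences from Rpl31.
Rpl31-ps14: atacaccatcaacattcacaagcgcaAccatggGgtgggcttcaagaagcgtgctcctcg
Rpl31: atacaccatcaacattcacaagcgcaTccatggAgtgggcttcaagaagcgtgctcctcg
Rpl15-ps2 (window chr9:72061242-72061301, plus strand) carries C322T, G323A and C354G, 3 of its 8 substitutions relative to Rpl15.
Rpl15-ps2: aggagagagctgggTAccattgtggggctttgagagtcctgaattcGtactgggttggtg
Rpl15: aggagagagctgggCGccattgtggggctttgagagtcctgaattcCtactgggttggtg
Rps15-ps2 (window chr6:58017686-58017745, plus strand) carries G187A, A192G, A201G, T219C and G234A, 5 of its 10 differences from Rps15.
Rps15-ps2: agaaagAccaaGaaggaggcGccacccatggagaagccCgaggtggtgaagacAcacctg
Rps15: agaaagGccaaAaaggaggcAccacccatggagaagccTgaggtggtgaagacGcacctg

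These differences bear on how a fragment can be placed. Every stretch of 50 bases of Rpl38-ps2 and of Rps6-ps4 also occurs in the transcript of another gene. The share was 95.7% for Rpl3-ps1, 92.4% for Rpl10-ps6, 84.2% for Rpl15-ps2, 54.1% for Rpl31-ps14 and 32.1% for Rps15-ps2. In 15 of 119 members no stretch of 50 bases was unique, and the median share found elsewhere was 62.8%. Neither the read length nor the handling of reads with several matches was stated, so the split between a copy and its parent is uncertain in every value, and so is the strand where a copy lies inside or opposite another gene.

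Depth was 17830000 to 24810000 fragments in the combination, 18080000 to 32440000 in ESK981, 11320000 to 24190000 in anti-PD-1 and 9900000 to 18350000 in vehicle tumours, with the lowest in vehicle 5R and the highest in ESK981 1R. On 456 bases 1 fragment was worth 0.0676 FPKM in the deepest and 0.222 FPKM in the shallowest tumour, and 42 of the 104 members whose FPKM gave whole fragments had a median under 10. Sequencing run went with treatment. The 23 treated tumours and vehicle 5R were run on 1 flow cell and the other 9 vehicle tumours on a second, and lane 6 of the treated flow cell held the 7 anti-PD-1 tumours and no other. Treatment and flow cell can be told apart only through vehicle 5R, the shallowest tumour, so its values are given beside the main results. Summed FPKM of the genes on ribosomal RNA sequence were 19590 to 500400 in the combination, 15040 to 86390 in ESK981, 36280 to 179200 in anti-PD-1 and 127100 to 240300 in vehicle tumours, with the highest value in combination 5R. Summed FPKM of the mitochondrial protein genes were 5022 to 19040 in the combination, 3991 to 8369 in ESK981, 7233 to 52730 in anti-PD-1 and 5683 to 90860 in vehicle tumours, with the highest value in vehicle 5R. In bulk tumours fewer cells of a type and less RNA per cell cannot be told apart.

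Levels were low and uneven. The 120 members averaged 0.227 to 176 FPKM over the 33 tumours with a median of 1.65 FPKM, and 44 averaged under 1 FPKM and 8 at least 10 FPKM. Their parents averaged 13.2 to 789 FPKM with a median of 127 FPKM, and Rps2-ps10 was the 1 copy with a higher mean than its parent. The 10 with the highest mean were Rps2-ps10, Rpl38-ps2, Rpl3-ps1, Rpl34-ps1, Rpl28-ps3, Rps23-ps1, Rpl39-ps, Rps26-ps1, Rpl38-ps1 and Rps16-ps2. Members closer to their parent were higher: the median of the mean levels was 4.52 FPKM in the 11 with no differing base, 2.82 FPKM in the 44 with 1 to 5, 1.19 FPKM in the 40 with 6 to 20 and 0.736 FPKM in the 22 with more. The plot of level by difference shows this slope. Its points share the same tumours and the same placing of reads, and no test was made.

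**Figure D1:**
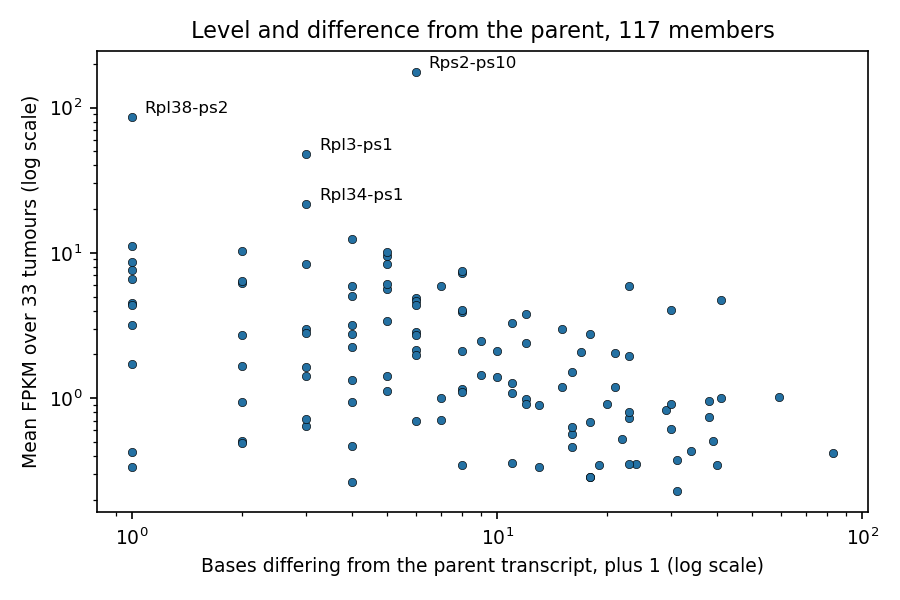
Mean level over 33 tumours in FPKM (log scale) against the number of bases, substitutions and gaps, that differ from the parent transcript, plus 1 (log scale). Each point is 1 of the 117 members aligned over at least 80% of their length, and the labelled Rps2-ps10, Rpl38-ps2, Rpl3-ps1 and Rpl34-ps1 have the highest levels and 5 or fewer differences.

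The 3 most abundant copies carried much of the sum, and most in vehicle tumours. Rps2-ps10, Rpl38-ps2 and Rpl3-ps1 held a median share of 45.4% of the summed member FPKM in the combination, 45.6% in ESK981, 30.2% in anti-PD-1 and 60.5% in vehicle tumours. Their sum was 237 ± 70.6 FPKM in the combination, 257 ± 63.8 FPKM in ESK981, 231 ± 55.2 FPKM in anti-PD-1 and 453 ± 20.04 FPKM in vehicle mice (SD, n = 5 mice each). Every treated tumour but anti-PD-1 4R, at 447 FPKM, lay below the lowest vehicle tumour, at 408 FPKM, and vehicle 5R had 419 FPKM. The sum of the other 117 had another order, at 306 ± 67.3 FPKM in the combination, 314 ± 55.3 FPKM in ESK981, 414 ± 87.1 FPKM in anti-PD-1 and 302 ± 50.7 FPKM in vehicle mice. As a share of the summed parents, all members together stood at 6.59% ± 0.869 in the combination, 5.96% ± 0.398 in ESK981, 7.84% ± 1.16 in anti-PD-1 and 8.52% ± 0.619 in vehicle mice. These sums are a description and were not tested.

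**Figure D2:**
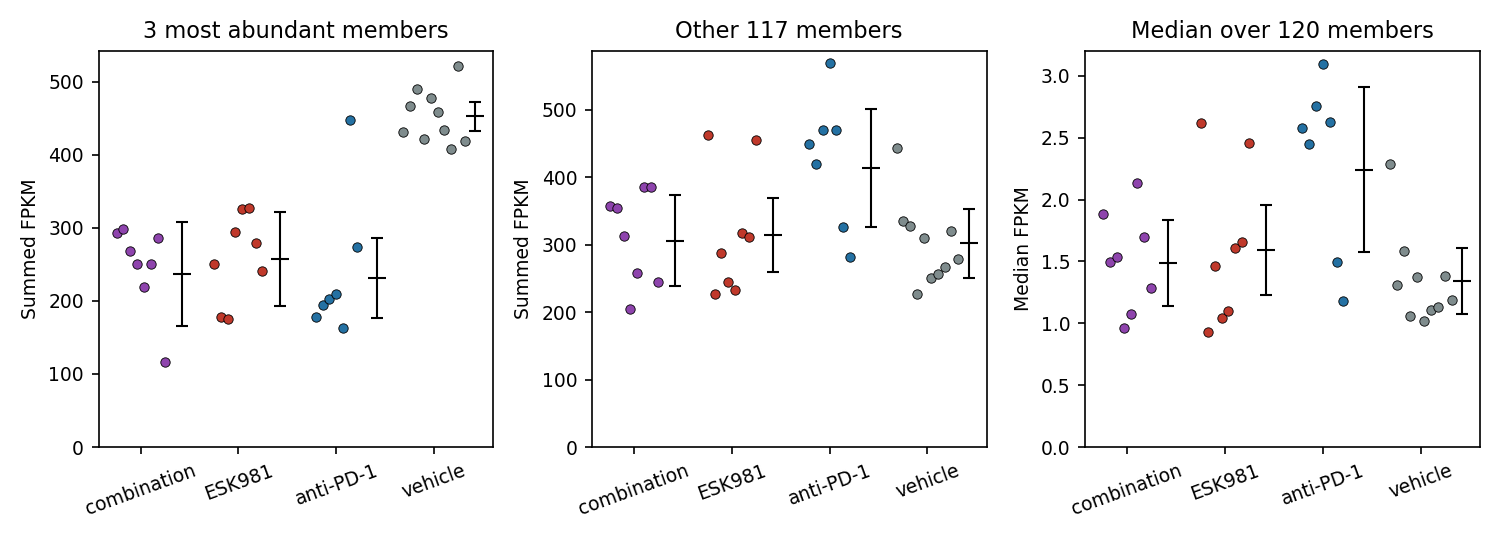
Summed FPKM of the 3 most abundant members (left), summed FPKM of the other 117 (middle) and median FPKM over all 120 (right), 1 point a tumour, with the mean and SD over 5 mice beside each group. On the left all treated tumours but anti-PD-1 4R lie below the vehicle tumours, and on the right 5 anti-PD-1 tumours lie between 2.45 and 3.09 FPKM.

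Each comparison was tested on mouse means of log2(FPKM + 0.5) with limma, over all 15846 genes with at least 0.5 FPKM in at least 5 tumours, and a gene was called at a Benjamini-Hochberg adjusted p under 0.05. Differences are on this log2 scale, where those of low genes come out too small, and are given ± SE. In the combination against vehicle 1 member rose and 4 fell, where 0.082% of all genes tested rose and 0.524% fell (0.606% called). In ESK981 against vehicle 5 rose and 9 fell, where 8.95% of all genes rose and 5.43% fell (14.4% called). In anti-PD-1 against vehicle 10 rose and 2 fell, where 0.473% of all genes rose and 0.309% fell (0.783% called). The share of members called was 4.17% in the combination, 11.7% in ESK981 and 10% in anti-PD-1, so the ESK981 share was below that of all genes. The 3 comparisons share the vehicle tumours, and a member that stands apart in vehicle shows in all of them.

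Scaling and flow cell moved these counts. Rescaling FPKM by the median of ratios brought the median difference of all genes in ESK981 to 0.01, against 0.11 as deposited, and in anti-PD-1 to 0.01, against 0.13, and the counts were then 4 higher and 8 lower in the combination, 3 and 11 in ESK981 and 9 and 4 in anti-PD-1. Of all genes 6.61% were then called in the combination, 27.9% in ESK981 and 2.26% in anti-PD-1. A fit to single tumours with a flow cell term, in which the vehicle level on the treated flow cell comes from vehicle 5R, called 3 members in the combination, 7 in ESK981 and 17 in anti-PD-1. That is 2.5% of the members against 28.2% of all genes in the combination, 5.83% against 36.5% in ESK981 and 14.2% against 27.7% in anti-PD-1, so the members' share was the lower one in each. The median difference of all genes in this fit was 0.56 in the combination, 0.60 in ESK981 and 0.60 in anti-PD-1. The calls included 0 of the 5 called in the combination, 2 of the 14 in ESK981 (Rpl10-ps6 and Rpl35a-ps6) and 5 of the 12 in anti-PD-1 (Rpl10-ps6, Rpl15-ps1, Rpl19-ps10, Rps12-ps4 and Rps19-ps4). Of these, Rpl35a-ps6, Rpl15-ps1 and Rps19-ps4 passed the level limit only through the group in which they were higher. Their calls are given as values and support nothing. In vehicle 5R the 5 kept in anti-PD-1 had 1, 0, 0, 2 and 0 fragments, in the order named, so this fit cannot decide between treatment and flow cell for them.

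**Figure D3:**
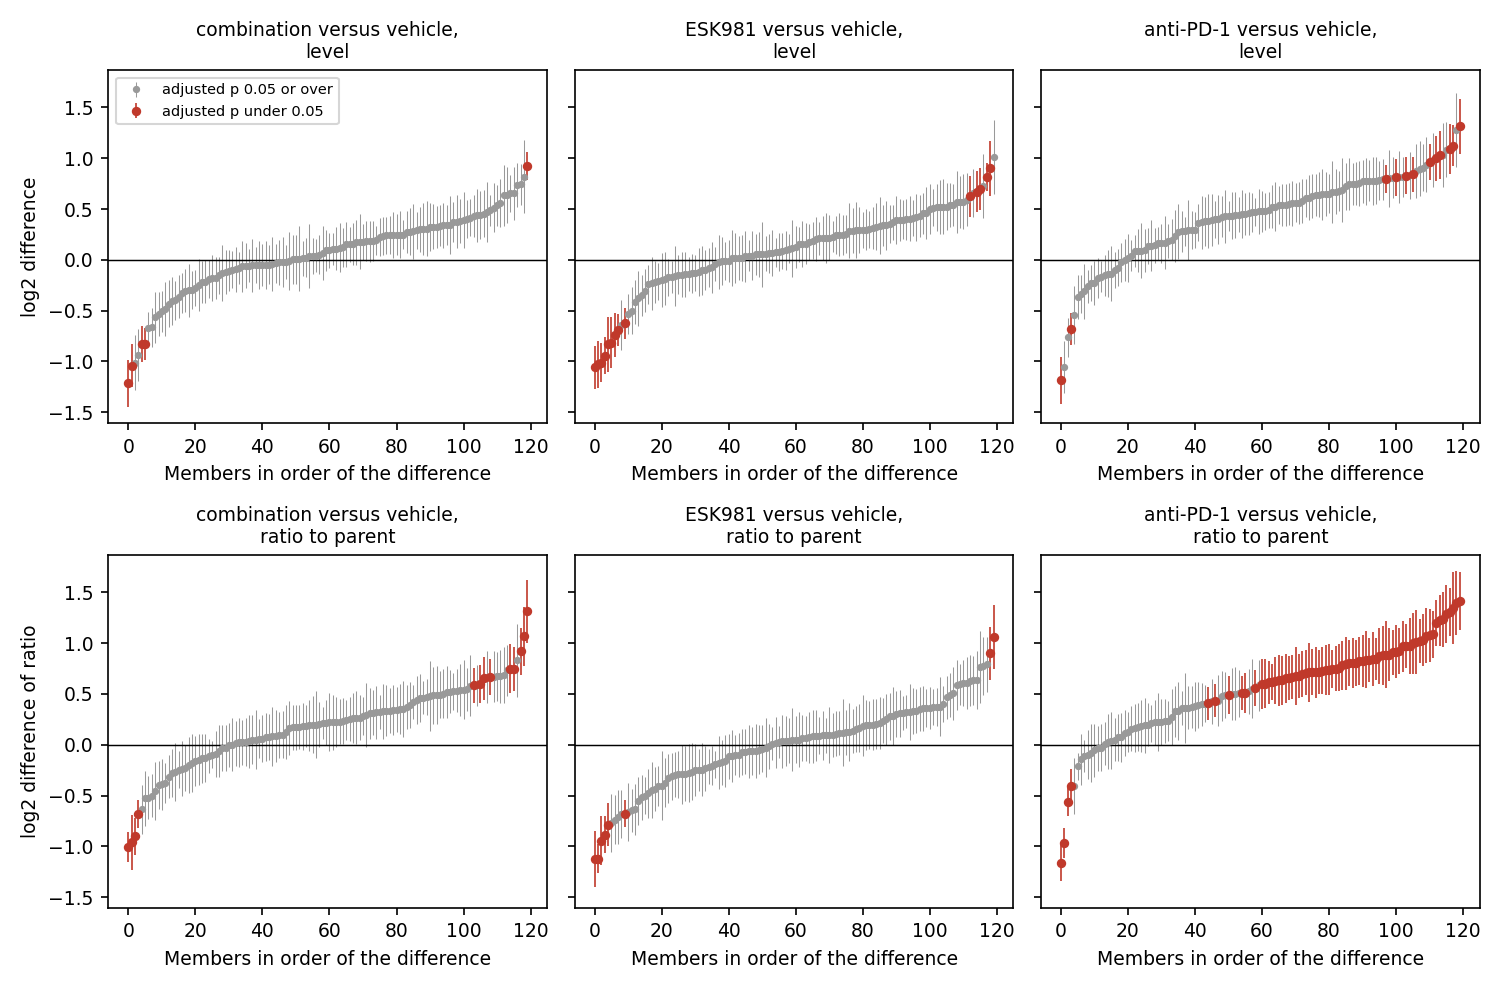
Difference from vehicle on the log2 scale for each of the 120 members, sorted within a panel, as level (top) and as ratio to the parent (bottom), with SE bars, in the combination, ESK981 and anti-PD-1. Red points have a limma adjusted p under 0.05, and with anti-PD-1 100 of 120 levels lie above 0 and 66 ratios are red above 0.

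Rpl38-ps2, the exact copy of Rpl38, whose large-subunit protein is known in mice for its part in translating Hox messenger RNAs, fell in all 3 treated groups. It ran from 28.3 through 63.0 to 88.5 FPKM in the combination, from 48.2 through 62.0 to 88.5 FPKM in ESK981, from 44.2 through 56.0 to 143 FPKM in anti-PD-1 and from 102 through 136 to 176 FPKM in vehicle tumours. All treated tumours but anti-PD-1 4R lay below all vehicle tumours, and vehicle 5R had 124 FPKM. It was 2.33-fold lower in the combination (-1.22 ± 0.23, limma adjusted p 0.012), 2.04-fold lower in ESK981 (-1.03 ± 0.23, limma adjusted p 0.00893) and 2.27-fold lower in anti-PD-1 (-1.19 ± 0.23, limma adjusted p 0.0156). Rpl38 itself, at 226 ± 79.2 FPKM in the combination, 246 ± 45.0 FPKM in ESK981, 205 ± 36.2 FPKM in anti-PD-1 and 312 ± 35.3 FPKM in vehicle mice, was not called. As a share of Rpl38 the copy stood at 26.8% ± 2.40 in the combination, 26.9% ± 2.25 in ESK981, 29.4% ± 4.74 in anti-PD-1 and 43.1% ± 1.94 in vehicle mice, and this ratio fell in the combination (-0.68 ± 0.14, limma adjusted p 0.002), in ESK981 (-0.68 ± 0.14, limma adjusted p 0.00172) and in anti-PD-1 (-0.56 ± 0.14, limma adjusted p 0.00358). The level was called in 29 of 30 settings in the combination, 29 of 30 in ESK981 and 24 of 30 in anti-PD-1. With the flow cell term the differences kept their sign and none passed (-0.96, limma adjusted p 0.0915 in the combination, -0.88, limma adjusted p 0.112 in ESK981 and -0.96, limma adjusted p 0.0912 in anti-PD-1).

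Rpl3-ps1, a copy of Rpl3, whose protein reaches toward the peptidyl transferase centre of the large subunit, fell in the same comparisons. It ran from 24.6 through 39.8 to 48.9 FPKM in the combination, from 29.8 through 43.6 to 50.8 FPKM in ESK981, from 34.4 through 38.7 to 57.4 FPKM in anti-PD-1 and from 48.3 through 69.7 to 74.7 FPKM in vehicle tumours. The mice of each treated group lay below those of vehicle, while combination 1R, ESK981 4R and anti-PD-1 4R lay in the vehicle range, whose lowest tumour was 2R. Vehicle 5R had 57.1 FPKM. The difference was -0.83 ± 0.16, limma adjusted p 0.012 in the combination, -0.69 ± 0.16, limma adjusted p 0.00945 in ESK981 and -0.68 ± 0.16, limma adjusted p 0.0417 in anti-PD-1. Rpl3 was not called, and as a share of it the copy stood at 35.1% ± 4.78 in the combination, 32.4% ± 4.56 in ESK981, 36.6% ± 7.39 in anti-PD-1 and 70.4% ± 3.04 in vehicle mice. Vehicle 5R, at 59.99%, was below the other vehicle tumours, at 63.0% to 77.3%, and within the anti-PD-1 range, which reached 61.0%. The ratio fell by 1.01 ± 0.15 on the log2 scale in the combination (limma adjusted p 4.39e-05), by 1.12 ± 0.15 in ESK981 (limma adjusted p 6.63e-06) and by 0.97 ± 0.15 in anti-PD-1 (limma adjusted p 7.94e-05). The level was called in 29 of 30 settings in the combination, 29 of 30 in ESK981 and 17 of 30 in anti-PD-1. With the flow cell term it gave -0.58, limma adjusted p 0.118 in the combination, -0.48, limma adjusted p 0.185 in ESK981 and -0.46, limma adjusted p 0.206 in anti-PD-1.

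Rps2-ps10, the most abundant copy, lies inside Pde6a on the opposite strand, and the Rps2 protein of the small subunit sits where the messenger RNA enters. It ran from 63.6 through 157 to 177 FPKM in the combination, from 88.9 through 152 to 217 FPKM in ESK981, from 79.3 through 111 to 247 FPKM in anti-PD-1 and from 231 through 247 to 275 FPKM in vehicle tumours. The vehicle tumours were close together and above all treated tumours but anti-PD-1 4R, and vehicle 5R had 238 FPKM. The level fell in ESK981 (-0.81 ± 0.25, limma adjusted p 0.0376) and was not called in the combination (-0.94 ± 0.25, limma adjusted p 0.101) or in anti-PD-1 (-1.05 ± 0.25, limma adjusted p 0.0537). The call in ESK981 held in 19 of 30 settings and was lost with the flow cell term (-0.69, limma adjusted p 0.216). Rps2 was not called, at 109.5 ± 25.5 FPKM in the combination, 119 ± 31.6 FPKM in ESK981, 119.5 ± 15.9 FPKM in anti-PD-1 and 110.4 ± 3.34 FPKM in vehicle mice. As a share of Rps2 the copy stood at 127% ± 35.1 in the combination, 125% ± 15.1 in ESK981, 113% ± 46.4 in anti-PD-1 and 231% ± 16.5 in vehicle mice. This ratio fell in the combination (-0.90 ± 0.18, limma adjusted p 0.002), in ESK981 (-0.88 ± 0.18, limma adjusted p 0.00175) and in anti-PD-1 (-1.16 ± 0.18, limma adjusted p 7.94e-05).

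Rps6-ps4, the exact copy of Rps6, whose protein is the classic substrate of the S6 kinases, was the 1 member that rose in all 3 treated groups. It ran from 2.86 through 4.05 to 5.31 FPKM in the combination, from 3.17 through 3.49 to 4.499 FPKM in ESK981, from 2.94 through 3.43 to 4.70 FPKM in anti-PD-1 and from 1.27 through 1.85 to 2.54 FPKM in vehicle tumours. No treated tumour overlapped a vehicle tumour, and vehicle 5R, at 2.42 FPKM, was within the range of the other vehicle tumours. It was 1.90-fold higher in the combination (0.93 ± 0.14, limma adjusted p 0.00108), 1.76-fold higher in ESK981 (0.82 ± 0.14, limma adjusted p 0.00189) and 1.74-fold higher in anti-PD-1 (0.80 ± 0.14, limma adjusted p 0.00606), on 11 to 89 fragments a tumour. Its call held in 29 of 30 settings in each comparison and was lost with the flow cell term (0.58, limma adjusted p 0.0865 in the combination, 0.45, limma adjusted p 0.175 in ESK981 and 0.41, limma adjusted p 0.215 in anti-PD-1). Rps6 itself, at 143 ± 34.6 FPKM in the combination, 158.4 ± 28.4 FPKM in ESK981, 150 ± 15.7 FPKM in anti-PD-1 and 110.4 ± 5.91 FPKM in vehicle mice, rose in ESK981 (0.50 ± 0.16, limma adjusted p 0.0418) and was the 1 parent of 50 called in any of the 3 comparisons. As a share of Rps6 the copy stood at 2.83% ± 0.463 in the combination, 2.31% ± 0.292 in ESK981, 2.38% ± 0.328 in anti-PD-1 and 1.68% ± 0.236 in vehicle mice, a ratio called in the combination alone (0.58 ± 0.17, limma adjusted p 0.0394). The share in vehicle 5R, at 2.16%, was above the other vehicle tumours, at 1.20% to 2.05%. It lay within the combination range of 1.98% to 3.61%.

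**Figure D4:**
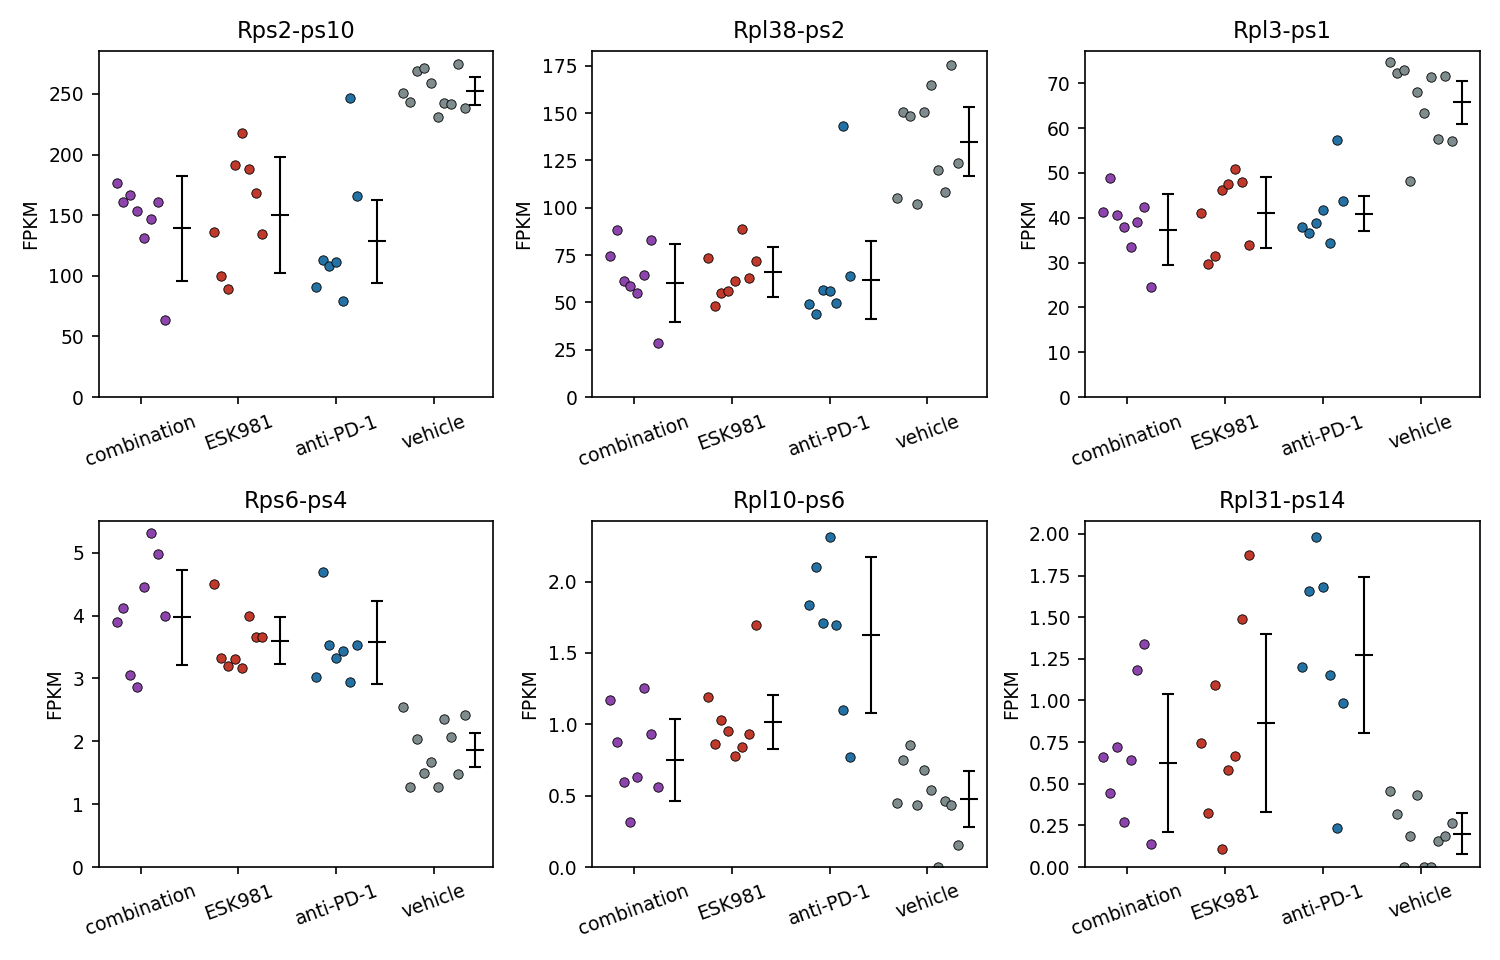
FPKM of Rps2-ps10, Rpl38-ps2, Rpl3-ps1, Rps6-ps4, Rpl10-ps6 and Rpl31-ps14 by group, 1 point a tumour, with the mean and SD over 5 mice beside each group. Rps6-ps4 is higher in every treated tumour, at 2.86 FPKM or more, than in any vehicle tumour, at 2.54 FPKM or less.

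Rpl15-ps2 and Rps15-ps2, copies of a large-subunit and of a small-subunit gene, fell in the combination and in ESK981 and were not called with anti-PD-1. Rpl15-ps2 averaged 0.837 ± 0.361 FPKM in the combination, 0.823 ± 0.310 FPKM in ESK981, 1.63 ± 0.431 FPKM in anti-PD-1 and 2.27 ± 0.676 FPKM in vehicle mice. The difference was -1.04 ± 0.21, limma adjusted p 0.0206 in the combination, -1.06 ± 0.21, limma adjusted p 0.00528 in ESK981 and -0.36 ± 0.21, limma adjusted p 0.475 in anti-PD-1. Mice of both groups given ESK981 lay below all vehicle mice. Rps15-ps2 averaged 2.36 ± 0.532 FPKM in the combination, 2.11 ± 0.397 FPKM in ESK981, 3.84 ± 1.06 FPKM in anti-PD-1 and 4.61 ± 1.01 FPKM in vehicle mice, with -0.83 ± 0.18, limma adjusted p 0.0335 in the combination, -0.95 ± 0.18, limma adjusted p 0.00381 in ESK981 and -0.23 ± 0.18, limma adjusted p 0.598 in anti-PD-1. Neither Rpl15 nor Rps15 was called. In the combination they were called in 24 of 30 and 21 of 30 settings. Whether either copy differed between ESK981 and anti-PD-1 was not tested, and with the flow cell term neither passed.

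The other calls in ESK981 were falls of Rpl35a-ps6, Rpl36-ps2, Rpl13-ps3 and Rpl21-ps15 and rises of Rpl31-ps14, Rps15a-ps7, Rpl10-ps6 and Rpl9-ps6. Rpl35a-ps6 averaged 0.194 ± 0.143 FPKM in ESK981 and 0.901 ± 0.372 FPKM in vehicle mice (-1.01 ± 0.19, limma adjusted p 0.00369). It passed the level limit only through the vehicle tumours, so it had to differ. Rpl21-ps15 averaged 4.08 ± 0.677 FPKM in ESK981 and 6.36 ± 0.897 FPKM in vehicle mice (-0.62 ± 0.16, limma adjusted p 0.0142), but vehicle 5R, at 4.18 FPKM, was below the other vehicle tumours. Rpl13-ps3 averaged 1.26 ± 0.443 FPKM in ESK981 and 2.33 ± 0.374 FPKM in vehicle mice, and Rpl36-ps2 1.70 ± 0.634 FPKM in ESK981 and 3.32 ± 0.982 FPKM in vehicle mice. These are copies of large-subunit genes. Rps15a-ps7 averaged 3.20 ± 0.774 FPKM in ESK981 and 1.83 ± 0.581 FPKM in vehicle mice (0.70 ± 0.20, limma adjusted p 0.0285). Vehicle 5R, at 4.12 FPKM, was above the other 9 vehicle tumours and within the ESK981 range, and with the flow cell term the difference turned to -0.37, limma adjusted p 0.481. Rpl9-ps6, annotated as protein-coding, averaged 1.76 ± 0.497 FPKM in ESK981 and 0.948 ± 0.230 FPKM in vehicle mice. Rps15a-ps7, Rpl9-ps6, Rpl13-ps3 and Rpl36-ps2 were called in 20 of 30, 18 of 30, 22 of 30 and 14 of 30 settings. For 12 of the 14 members called in ESK981, vehicle 5R was within the range of the other vehicle tumours.

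With anti-PD-1, 100 of the 120 members had a positive difference, and 69 were higher and 4 lower at an unadjusted limma p under 0.05, where 10.8% of all genes were higher and 2.35% lower. The median difference was 0.48 against 0.13 over all genes tested, whereas it was 0.09 against 0.03 in the combination and 0.12 against 0.11 in ESK981. With rescaled FPKM it was 0.38 against 0.01 in anti-PD-1. With the flow cell term the order turned, with 0.51 for members against 0.60 for all genes in anti-PD-1, and it was 0.13 against 0.56 in the combination and 0.18 against 0.60 in ESK981. The median level over the 120 was 2.45 to 3.09 FPKM in anti-PD-1 1R, 2R, 3L, 3R and 4L, but 1.497 FPKM in 4R and 1.18 FPKM in 5L. It reached 2.13 FPKM in the combination, 2.62 FPKM in ESK981 and 2.29 FPKM in vehicle tumours, so the groups overlapped, and vehicle 5R had 1.19 FPKM. Since all anti-PD-1 tumours and no other ran in lane 6 of their flow cell, treatment and lane cannot be told apart here. The count of calls turned on single mice. It was 49 (46 higher and 3 lower) without mouse 5 of anti-PD-1 and 2 without mouse 1 or mouse 3 of anti-PD-1. The share of all genes called without each of these mice is not given, so these counts do not single out the members. With combination 5R, anti-PD-1 4R and vehicle 5R all left out the count was 48 (44 higher and 4 lower), where 11.2% of all genes were called.

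Rpl31-ps14, a copy of Rpl31, a protein by the exit of the peptide tunnel, had the largest called rise with anti-PD-1. It ran from 0.137 through 0.651 to 1.34 FPKM in the combination, from 0.108 through 0.706 to 1.88 FPKM in ESK981, from 0.234 through 1.20 to 1.98 FPKM in anti-PD-1 and from 0 through 0.184 to 0.459 FPKM in vehicle tumours. Of the anti-PD-1 tumours 4R alone lay in the vehicle range, and vehicle 5R had 0.267 FPKM. Vehicle 2L, 3R and 4L had no fragment, which allows up to 0.686 FPKM in the shallowest of them (3 fragments, counting error only). The difference was 1.31 ± 0.27, limma adjusted p 0.0241 in anti-PD-1, 0.90 ± 0.27, limma adjusted p 0.0327 in ESK981 and 0.64 ± 0.27, limma adjusted p 0.336 in the combination, called in 21 of 30 settings in anti-PD-1 and 21 of 30 in ESK981, on 0 to 15 fragments a tumour.

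Rpl10-ps6, the copy with the early stop codon, lies in an intron of Ide on the same strand, and the Rpl10 protein completes the maturation of the large subunit. It ran from 0.319 through 0.751 to 1.25 FPKM in the combination, from 0.775 through 0.943 to 1.69 FPKM in ESK981, from 0.773 through 1.71 to 2.31 FPKM in anti-PD-1 and from 0 through 0.458 to 0.858 FPKM in vehicle tumours. Of the anti-PD-1 tumours 5L alone lay in the vehicle range, and vehicle 5R had 0.157 FPKM. It rose in anti-PD-1 (1.12 ± 0.20, limma adjusted p 0.00912) and in ESK981 (0.67 ± 0.20, limma adjusted p 0.0319), and in the combination the difference was 0.37 ± 0.20, limma adjusted p 0.456. The call with anti-PD-1 held in all 30 settings tried, including the flow cell term, and that with ESK981 in 22 of 30. With the flow cell term the vehicle level on the treated flow cell rests on vehicle 5R, which had 1 fragment of Rpl10-ps6. This setting therefore cannot decide between treatment and flow cell.

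The other members that rose with anti-PD-1 were copies of large-subunit genes (Rpl17-ps5, Rpl9-ps7, Rpl19-ps10, Rpl15-ps1 and Rpl23a-ps3) and of small-subunit genes (Rps12-ps4 and Rps19-ps4). Rpl17-ps5 averaged 4.48 ± 1.36 FPKM in anti-PD-1 and 1.90 ± 0.849 FPKM in vehicle mice (1.09 ± 0.24, limma adjusted p 0.0372). Rpl9-ps7 averaged 4.42 ± 1.41 FPKM in anti-PD-1 and 1.95 ± 0.861 FPKM in vehicle mice (1.03 ± 0.23, limma adjusted p 0.0384). Anti-PD-1 4R and 5L lay in the vehicle range in both, and the calls held in 19 of 30 and 15 of 30 settings. Rps12-ps4 averaged 2.12 ± 0.920 FPKM in anti-PD-1 and 0.782 ± 0.349 FPKM in vehicle mice (0.999 ± 0.22, limma adjusted p 0.0335), and Rpl23a-ps3, annotated as protein-coding, 3.88 ± 0.850 FPKM in anti-PD-1 and 1.999 ± 0.510 FPKM in vehicle mice (0.81 ± 0.18, limma adjusted p 0.0372). Rpl19-ps10, Rpl15-ps1 and Rps19-ps4 rested on medians of 2, 4 and 3 fragments a tumour. Rpl19-ps10 averaged 0.681 ± 0.262 FPKM in anti-PD-1 and 0.0989 ± 0.0749 FPKM in vehicle mice, Rpl15-ps1 0.802 ± 0.303 FPKM in anti-PD-1 and 0.226 ± 0.0808 FPKM in vehicle mice, and Rps19-ps4 0.719 ± 0.269 FPKM in anti-PD-1 and 0.182 ± 0.0652 FPKM in vehicle mice. Rpl15-ps1 and Rps19-ps4 passed the level limit only through the anti-PD-1 tumours, so they had to differ. RPS19 is mutated in human Diamond-Blackfan anaemia. For 9 of the 10 members that rose, vehicle 5R was within the range of the other vehicle tumours, Rpl23a-ps3 being the exception.

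The ratio of copy to parent was tested over 197 pairs of a -ps pseudogene and its parent, 120 of them members. With anti-PD-1 it rose for 66 members and fell for 4, where 45.7% of all pairs rose and 4.06% fell (49.7% called). The members held 58.3% called and the 77 other pairs 36.4%, with 24 higher and 4 lower, and the median difference was 0.59 for members and 0.29 for the other pairs. The largest rises were those of Rps18-ps3, Rpl35a-ps5, Rpl30-ps9, Rpl31-ps14 and Rps12-ps1. Rps18-ps3 stood at 5.08% ± 2.35 of Rps18 in anti-PD-1 and 1.48% ± 0.503 in vehicle mice (1.41 ± 0.29, limma adjusted p 0.00121), and Rpl35a-ps5 at 11.7% ± 4.92 of Rpl35a in anti-PD-1 and 3.27% ± 1.19 in vehicle mice (1.397 ± 0.31, limma adjusted p 0.00201). The parents were lower without passing, with -0.63 ± 0.19, limma adjusted p 0.122 for Rps18 and -0.73 ± 0.21, limma adjusted p 0.1 for Rpl35a. The copies' own levels gave 0.78 ± 0.24, limma adjusted p 0.117 for Rps18-ps3 and 0.67 ± 0.30, limma adjusted p 0.348 for Rpl35a-ps5. Vehicle 5R, with ratios of 0.687% for Rps18-ps3 and 1.88% for Rpl35a-ps5, was below the anti-PD-1 range in both. These ratios rested on 3 fragments of Rps18-ps3 and 1 of Rpl35a-ps5, so they cannot decide between treatment and flow cell. For Rps18-ps3 vehicle 5R was also below the other vehicle tumours, at 0.892% to 2.60%. The 4 that fell were Rps2-ps10, Rpl3-ps1, Rpl38-ps2 and Rpl10-ps3, the last with -0.41 ± 0.17, limma adjusted p 0.0494. For 48 of the 66 the ratio in vehicle 5R was within the range of the other vehicle tumours, and for 32 it was within the anti-PD-1 range. With the flow cell term 1 member ratio was called with anti-PD-1, 0 in the combination and 0 in ESK981.

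The parents lay on both sides of 0. Of 50 parents 0 were called with anti-PD-1 (1 higher and 4 lower at an unadjusted limma p under 0.05), with a median difference of -0.08. In the combination 0 were called (1 higher and 5 lower unadjusted), with a median of -0.12, and in ESK981 the median was 0.11. The plot of copies against parents shows the copies mostly above 0 with anti-PD-1 while the parents lie on both sides of 0.

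**Figure D5:**
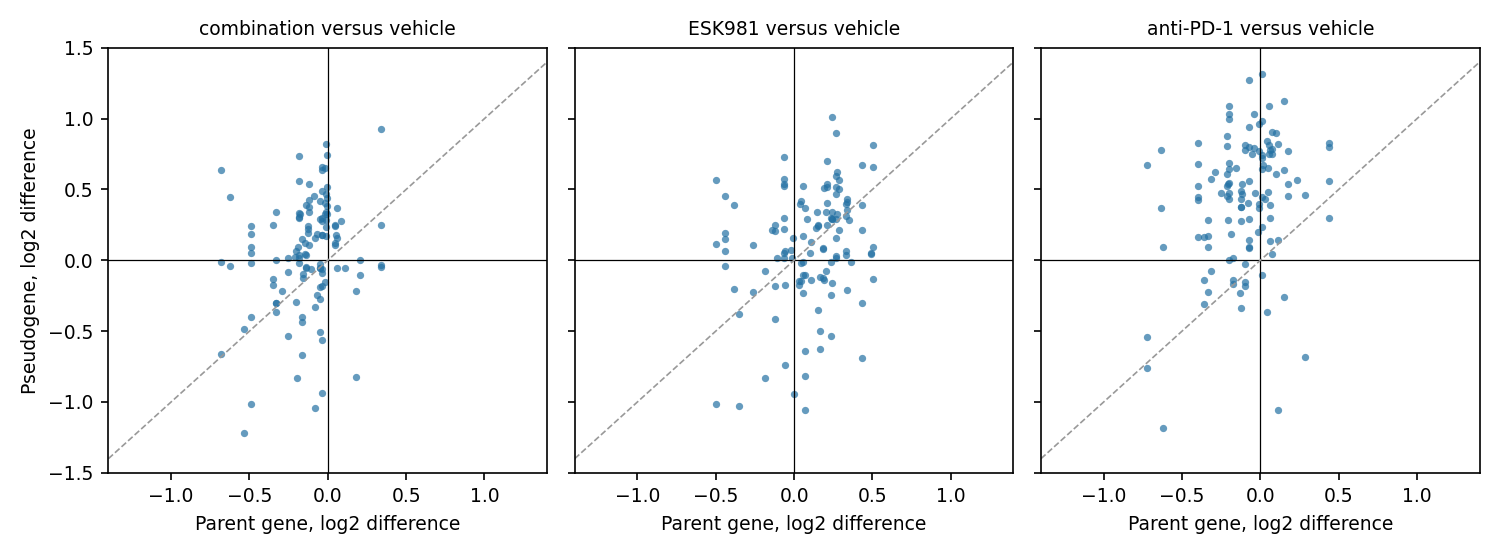
Difference from vehicle on the log2 scale of each pseudogene (vertical) against that of its parent (horizontal), 1 point a member, in the combination, ESK981 and anti-PD-1. The dashed line marks equal differences, and copies of 1 parent share a horizontal position. With anti-PD-1 100 of 120 points lie above 0 on the vertical axis.

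In the combination the ratio rose for 9 members and fell for 4, where 6.09% of all pairs rose and 4.57% fell (10.7% called). In ESK981 it rose for 2 and fell for 6, where 1.02% of all pairs rose and 6.6% fell (7.61% called). Of the members 10.8% were called in the combination and 6.67% in ESK981, near the share of all pairs in both comparisons. Rpl35a-ps5 rose in both, and as a share of Rpl35a stood at 10.8% ± 4.67 in the combination, 8.87% ± 5.33 in ESK981, 11.7% ± 4.92 in anti-PD-1 and 3.27% ± 1.19 in vehicle mice (1.31 ± 0.31, limma adjusted p 0.0108 in the combination and 1.06 ± 0.31, limma adjusted p 0.0288 in ESK981). The other largest rises in the combination were those of Rps18-ps3 (1.07 ± 0.29), Rps12-ps4 (0.92 ± 0.23), Rpl9-ps6 (0.75 ± 0.22) and Rps12-ps26 (0.75 ± 0.24). The other rise in ESK981 was Rps19-ps3, at 7.77% ± 3.65 of Rps19 in ESK981 and 3.64% ± 0.971 in vehicle mice (0.90 ± 0.26, limma adjusted p 0.0288). Rps2-ps10, Rpl3-ps1, Rpl38-ps2 and Rpl15-ps2 fell in both, and Rps15-ps2 and Rpl21-ps15 fell in ESK981.

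The combination was then set against each agent alone. Against ESK981, 0 members were called in limma (1 higher and 2 lower at an unadjusted p under 0.05), as were 0% of all genes, and the median difference was -0.04 against -0.09 over all genes. Against anti-PD-1, 0 members were called (0 higher and 51 lower unadjusted, where 5.56% of all genes were lower), as were 0% of all genes, and the median difference was -0.42 against -0.09. Rpl10-ps6 had -0.75 ± 0.20, limma adjusted p 0.47 there. The interaction, which is the anti-PD-1 difference with ESK981 minus that without it, was called for 0 members (4 higher and 49 lower unadjusted, where 3.4% of all genes were higher and 14.8% lower). After adjustment 0.0189% of all genes rose and 0.00631% fell (0.0252% called), with a median of -0.53 against -0.22. In the limma ratio fit 0 members were called against ESK981 (6 higher and 1 lower unadjusted, where 5.58% of all pairs were higher and 0.508% lower). Against anti-PD-1 0 were called (1 higher and 42 lower unadjusted, where 0.508% of all pairs were higher and 29.4% lower). This count was 52 with single tumours and mouse as a block (43.3% of members, 39.6% of all pairs). It was 51 with the flow cell term (42.5% of members, 39.1% of all pairs). With combination 5R, anti-PD-1 4R and vehicle 5R left out it was 48 (40% of members, 33.5% of all pairs). These shares of members lie near those of all pairs. The count was 57 without anti-PD-1 mouse 5, 20 without combination mouse 5 and 3 without combination mouse 2, for which the share of all pairs is not given. The ratio interaction was called for 2 higher and 3 lower, where 2.03% of all pairs were higher and 2.54% lower (4.57% called).

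Some copies of 1 parent differed in sign. The largest sets were the 8 copies of Rps12 and the 8 of Rpl31, followed by 5 each of Rpl30, Rps15a and Rps19, while 19 parents had 1 copy. With anti-PD-1 the copies of Rps12 reached 1.09 on the log2 scale and those of Rpl31 ran from -0.10 to 1.31, with 7 of 8 positive in each. All 5 copies of Rpl30, of Rps15a and of Rps19 were positive. The 3 copies of Rpl35a ran from -0.76 to 0.67 and the 3 of Rps2 from -1.05 to 0.82. Rpl38-ps1 averaged 7.33 ± 2.67 FPKM in the combination, 8.23 ± 2.84 FPKM in ESK981, 10.98 ± 3.22 FPKM in anti-PD-1 and 10.5 ± 3.605 FPKM in vehicle mice, beside the fall of Rpl38-ps2. By closeness to the parent, the median difference with anti-PD-1 was 0.28 in the 11 copies with no differing base, 0.55 in the 44 with 1 to 5, 0.55 in the 40 with 6 to 20 and 0.42 in the 22 with more. By place it was 0.28 in the 15 inside a gene on the same strand, 0.45 in the 28 inside a gene on the opposite strand only and 0.54 in the other 76. Of these 71 overlapped no gene and the rest overlapped an exon of another gene.

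Several abundant copies were called in no level comparison. Rpl34-ps1 averaged 20.1 ± 6.38 FPKM in the combination, 21.8 ± 4.21 FPKM in ESK981, 19.1 ± 4.08 FPKM in anti-PD-1 and 24.0 ± 1.98 FPKM in vehicle mice. As a share of Rpl34 this was 92.9% ± 7.52 in the combination, 86.6% ± 7.19 in ESK981, 87.1% ± 19.9 in anti-PD-1 and 99.5% ± 7.90 in vehicle mice. All its stretches of 50 bases occur in another transcript. Rpl28-ps3 averaged 10.7 ± 2.20 FPKM in the combination, 10.2 ± 2.32 FPKM in ESK981, 18.2 ± 6.21 FPKM in anti-PD-1 and 11.2 ± 2.63 FPKM in vehicle mice, and Rps23-ps1, without a differing base, 10.9 ± 3.38 FPKM in the combination, 10.2 ± 2.49 FPKM in ESK981, 10.7 ± 1.16 FPKM in anti-PD-1 and 11.4 ± 1.78 FPKM in vehicle mice. Rpl39-ps averaged 8.96 ± 3.29 FPKM in the combination, 10.3 ± 2.31 FPKM in ESK981, 12.8 ± 3.63 FPKM in anti-PD-1 and 8.64 ± 2.15 FPKM in vehicle mice. Rps26-ps1 averaged 12.2 ± 2.25 FPKM in anti-PD-1 and 10.8 ± 2.96 FPKM in vehicle mice, and Rps16-ps2 10.6 ± 1.85 FPKM in anti-PD-1 and 7.54 ± 0.744 FPKM in vehicle mice. The ratio to the parent rose with anti-PD-1 for Rpl28-ps3, Rpl39-ps, Rpl38-ps1 and Rps16-ps2 and was not called for Rpl34-ps1, Rps23-ps1 and Rps26-ps1.

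Other lists give the setting. Of 83 cytosolic ribosomal protein genes tested 1 rose and 1 fell in ESK981, and 0 were called in the combination (2 higher and 11 lower at an unadjusted limma p under 0.05) or with anti-PD-1 (2 and 10 unadjusted). Of 20 translation factors and related messenger RNAs 1 fell in the combination, 1 rose and 1 fell in ESK981, and 0 were called with anti-PD-1 (1 and 1 unadjusted in limma). Of 107 other -ps pseudogenes 2 fell in the combination, 3 rose and 10 fell in ESK981, and 3 rose and 1 fell with anti-PD-1, where 40 were higher and 4 lower unadjusted and the median difference was 0.30. The 10 that fell in ESK981 included the Rpsa copies Rpsa-ps1 and Rpsa-ps9, named after their values were seen. The 5 macrophage markers summed to 35.8 to 162 FPKM in the combination, 47.6 to 91.2 FPKM in ESK981, 97.2 to 182 FPKM in anti-PD-1 and 73.8 to 201 FPKM in vehicle tumours. The 4 fibroblast markers summed to 31.8 to 236 FPKM in the combination, 26.5 to 56.0 FPKM in ESK981, 58.3 to 120.3 FPKM in anti-PD-1 and 50.0 to 655 FPKM in vehicle tumours. Their medians were 45.8 FPKM in the combination, 44.8 FPKM in ESK981, 82.5 FPKM in anti-PD-1 and 117 FPKM in vehicle tumours. The 5 T cell markers summed to 0.711 to 10.3 FPKM in the combination, 0.678 to 2.94 FPKM in ESK981, 0.646 to 7.66 FPKM in anti-PD-1 and 0.533 to 10.5 FPKM in vehicle tumours. In the same order of groups, macrophage medians were 75.4, 60.9, 132.4 and 112.7 FPKM and T cell medians 5.32, 1.21, 4.17 and 5.06 FPKM. Median sums were 35440, 28040, 64910 and 174900 FPKM for ribosomal RNA sequence and 9334, 6444, 7780 and 21350 FPKM for mitochondrial protein genes. Fibroblast, ribosomal RNA and mitochondrial medians were lower in each treated group, and macrophage and T cell medians were not. The part of these cells, of ribosomal RNA, of mitochondrial RNA, of depth and of lane in the differences was not tested.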

How the data were processed

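FPKM values were used as the authors deposited them, in 1 table made from reads aligned with STAR to mm10 and counted with featureCounts, per the submitters' processing notes. Versions, annotation release, strand setting and the handling of reads with several matches were not stated. All value columns matched a sample (0 unmatched). Members and lists were chosen with earlier results of these data known. The mouse, from the ear tag in the labels, was the replicate: log2(FPKM + 0.5) was averaged over its tumours (13 mice had 2 and 7 had 1). Groups were compared with limma 3.58.1 in R 4.3.3 (mean-variance trend, 16 residual degrees of freedom, two-sided), with Benjamini-Hochberg adjustment over 15846 genes or 197 pairs. The steps were tested on simulated data. The ratio is the log2 value of the copy minus that of its parent, and its interaction was added after the data were seen. Low FPKM times exon length came out as whole fragments (within 0.01), which gave the depth, and limits from it cover counting error only. Sequences are GENCODE M21 transcripts, aligned with Biopython 1.88. Named members were the 10 with the highest mean, in each comparison up to 8 called rises and 8 falls by level and up to 5 of each sign by ratio, and Rpl10-ps6 and Rps6-ps4, and any other was chosen after its values were seen. Alternatives were pseudocounts, filters, scaling, single tumours, a flow cell term and left-out tumours or mice. A few marker and parent genes are not reported here.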

Additional observations from a re-analysis of the deposited data

Results flagged for a closer look

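In 7 of 148 groups of 5 mice examined, 1 mouse stood far from the other 4, and chance gives about 5% of groups. Rpl15-ps1 had 0.655 FPKM in mouse 1 of the combination and 0.160 to 0.290 FPKM in the others. Rps2-ps10 had 63.6 FPKM in mouse 5 of the combination and 142 to 169 FPKM in the others, and that mouse gave tumour 5R, with the highest ribosomal RNA sum. Rps19-ps4 had 0.378 FPKM in mouse 2 of ESK981 and 0.202 to 0.247 FPKM in the others. Rpl15-ps2 had 0.877 FPKM in mouse 5 of anti-PD-1 and 1.68 to 1.93 FPKM in the others. In vehicle, mouse 1 had 15.8 FPKM of Rpl28-ps3 against 9.42 to 10.5 FPKM, and 2.39 FPKM of Rps18-ps3 against 1.11 to 1.47 FPKM in the other mice. Mouse 5 of vehicle had 0.256 FPKM of Rpl35a-ps5 and the others 0.800 to 0.958 FPKM.

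For 5 members the limma interaction over 197 pairs, the anti-PD-1 difference of the ratio with ESK981 minus that without it, was called. That is 4.17% of the members, near the 4.57% of all pairs called, so the count does not single out the members. The interaction contains the vehicle level, and 9 of the 10 vehicle tumours ran apart from the treated ones. Its values with a flow cell term are not reported, and interaction and flow cell can be told apart only through vehicle 5R. Given as log2 interaction ± SE with adjusted p, it was 1.15 ± 0.26, limma adjusted p 0.00866 for Rps2-ps10 and 1.08 ± 0.21, limma adjusted p 0.00338 for Rpl3-ps1, whose ratios fell in all 3 treated groups. Of its parent, Rpl3-ps1 stood at 35.1% ± 4.78 in the combination, 32.4% ± 4.56 in ESK981, 36.6% ± 7.39 in anti-PD-1 and 70.4% ± 3.04 in vehicle mice. The interaction was -1.80 ± 0.38, limma adjusted p 0.00671 for Rps12-ps10, -1.43 ± 0.40, limma adjusted p 0.039 for Rps12-ps1 and -1.27 ± 0.34, limma adjusted p 0.0343 for Rpl31-ps14. Of Rps12, Rps12-ps10 stood at 0.114% ± 0.0690 in the combination, 0.209% ± 0.04995 in ESK981, 0.315% ± 0.134 in anti-PD-1 and 0.0975% ± 0.0477 in vehicle mice. Their causes were not tested.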

How the results depend on the processing

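Counts of members called in the combination, ESK981 and anti-PD-1 against vehicle were 5, 14 and 12, and 13, 8 and 70 by ratio. Without a filter they were 3, 7 and 5, and the ratios in the combination 8. With median-of-ratios scaling the combination had 12, the interaction 1 and the ratios of the combination against anti-PD-1 had 1. Single tumours with mouse as a block gave 1 for the interaction and, by ratio, 23 in the combination, 20 in ESK981 and 52 in the combination against anti-PD-1. Of all pairs 18.8%, 15.7% and 39.6% were then called in these 3 comparisons. The flow cell term gave 3 in the combination, 7 in ESK981, 14 for the interaction and, by ratio, 0, 0 and 1 in the combination, ESK981 and anti-PD-1, and 51 in the combination against anti-PD-1. Of all genes it called 25.5% for the interaction, and of all pairs 39.1% in the combination against anti-PD-1. It reversed Rps15a-ps7 in ESK981 to -0.37. Without ESK981 1R and 2R, ESK981 had 9 and, by ratio, 5, and the combination 8 by ratio. For these counts and those without a filter the shares of all genes or pairs are not given, so they do not single out the members. With combination 5R, anti-PD-1 4R and vehicle 5R all left out the combination had 13, anti-PD-1 48 and the interaction 15 (of all genes 9.22%, 11.2% and 4.58%). The ratios of the combination against anti-PD-1 then had 48 (33.5% of all pairs). Other pseudocounts (0.1 and 1) and a filter at 1 FPKM moved no count by over 1.5 times. The causes were not tested.

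Leaving out 1 mouse gave 3 to 6 members in the combination, 8 to 17 in ESK981, 2 to 49 in anti-PD-1, 0 to 0 in the combination against ESK981, 0 to 4 against anti-PD-1 and 0 to 3 for the interaction, and by ratio 7 to 21, 6 to 17, 50 to 84, 0 to 0 and 0 to 57 for the first 5 of these. Mice that moved a count by over 1.5 times were, for anti-PD-1, mice 1 to 5 of anti-PD-1 (2, 4, 2, 21 and 49), mice 1 to 5 of vehicle (21, 5, 3, 5 and 4) and combination mouse 5 (19). For ESK981 they were ESK981 mice 1, 2 and 5 (9, 8 and 8) and vehicle mouse 2 (8), and for the combination its mice 1 and 3 and vehicle mice 1 and 4 (3 each). For the interaction they were combination mice 4 and 5 (1 each) and anti-PD-1 mice 4 and 5 (2 and 3), and for the combination against anti-PD-1 anti-PD-1 mouse 5 (4). By ratio they were anti-PD-1 mouse 5 in the combination (21), in ESK981 (17) and in the combination against anti-PD-1 (57), combination mice 2 and 5 there (3 and 20), and combination mice 3 and 4 and vehicle mice 2 and 3 in the combination (7, 8, 8 and 7). Of the values of named members, 240 kept sign and call, 55 kept their sign and lost the call and 1 turned under the settings other than leaving out 1 mouse at a time, and 477 and 123 kept or lost the call without 1 mouse. No paired analysis was possible because the ear tags differ between groups and the mouse numbers pair nothing. For the counts without 1 mouse the shares of all genes or pairs are not given, so these counts do not single out the members. Low depth limits the 42 members with a median under 10 fragments.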
